A study of Mus musculus with 29 samples.

Results

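The genes described here encode the transforming growth factor-beta (TGF-β) ligands (Tgfb1, Tgfb2, Tgfb3), the receptors (Tgfbr1, Tgfbr2, Tgfbr3) and the Smad proteins that carry the signal or restrain it (Smad2, Smad3, Smad4, Smad7). They were represented by the 190 windows, of 260686 in the table, that the authors' file names after 1 of these 10 genes, and all 190 had a value in each of 29 libraries. Tgfbr3 held 45 windows, Smad3 30, Tgfbr2 26, Tgfb2 21, Smad2, Smad4 and Smad7 15 each, Tgfb1 and Tgfbr1 9 each, and Tgfb3 5. A further 2 windows that overlap Tgfb3 carry the name of its neighbour Ttll5 and were not counted. Each value is a methylation score (%DNAm) in 1 window, which held 50 CpG dinucleotides at the median.

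The libraries were made from lung of 13-week-old BALB/c offspring labelled female. Their dams received saline (Sham) or fine particulate matter (PM) through the nose before mating, in gestation and until weaning, and the offspring themselves were not given PM. Sham-OVA and PM-OVA offspring were sensitised to ovalbumin (OVA), an egg protein, with an aluminium adjuvant and then inhaled nebulised OVA, a model of allergic airways disease, whereas Sham and PM offspring inhaled saline, which the labels call PBS. The paper leaves unclear whether Sham and PM offspring were sensitised as well. There were 7 libraries each of Sham, Sham-OVA and PM, and 8 of PM-OVA, all taken after lung function testing with inhaled methacholine. DNA came from a homogenised piece of lung, so it is a mixture of cell types, and a changed share of a cell type cannot be told apart from a change within cells. The labels give neither dam nor litter, and p-values measure the spread between these libraries.

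In the pathway as generally understood, TGF-β is secreted in a latent form and released by integrins and proteases, after which it binds the Tgfbr2 kinase, often presented by the co-receptor Tgfbr3 (betaglycan). Tgfbr2 then activates the Tgfbr1 kinase, which phosphorylates Smad2 and Smad3, and these enter the nucleus with Smad4. Smad7 is induced by the signal and blocks it at the receptor, so it acts as a feedback inhibitor, and in the lung the pathway is known for airway remodelling, matrix deposition and regulatory T cells. CpG-rich gene starts are usually unmethylated in mammals, gene bodies are usually highly methylated, and intermediate methylation within introns is often seen at regulatory elements.

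The library labelled Sham replicate 1 stood apart, with a value in 1224 of 1230 windows on the Y chromosome, against 29 to 46 in the other 28 libraries. That goes against its label, which is female like that of the other libraries, so the Sham group of 7 may hold a library whose sex or identity is not as labelled, and results without it are given below. Mean %DNAm over all windows lay between 67.8% and 70.2% in every library. The depth behind a score is unknown here, since the table has neither counts nor coverage. Methylation does not show whether lung marker genes were expressed, so the tissue label was not checked against expression, and in Sham the windows of Nkx2-1, a lung and thyroid transcription factor, were at 1.36% to 3.77% whereas those of Sftpc, surfactant protein C, were at 44.9% to 72.1%. OVA moved the median of all windows by -0.414 percentage points in Sham and -1.03 in PM offspring, and these shifts stand behind every count below.

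The sequences shown first are the 300-base stretches richest in CpG within 4 intronic windows outside the Smad7 locus that the results turn on, shown for the sequence around part of the CpGs scored. A score averages the whole window, which held 50 CpGs over 2336 to 5691 bases in these 4. They are read from the plus strand of GRCm38, with each CpG in capitals. The stretch of Smad3 window 8 lies at chr9:63738900-63739199, that of Tgfbr2 window 12 at chr9:116135715-116136014, that of Tgfbr3 window 30 at chr5:107167403-107167702 and that of Tgfb2 window 4 at chr1:186702746-186703045.
Smad3 window 8: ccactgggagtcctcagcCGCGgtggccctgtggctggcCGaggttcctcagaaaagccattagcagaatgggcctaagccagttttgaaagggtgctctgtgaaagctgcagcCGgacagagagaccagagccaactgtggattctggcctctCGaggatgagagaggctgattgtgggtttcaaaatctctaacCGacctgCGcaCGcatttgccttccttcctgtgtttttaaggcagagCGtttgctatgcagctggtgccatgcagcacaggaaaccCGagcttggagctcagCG
Tgfbr2 window 12: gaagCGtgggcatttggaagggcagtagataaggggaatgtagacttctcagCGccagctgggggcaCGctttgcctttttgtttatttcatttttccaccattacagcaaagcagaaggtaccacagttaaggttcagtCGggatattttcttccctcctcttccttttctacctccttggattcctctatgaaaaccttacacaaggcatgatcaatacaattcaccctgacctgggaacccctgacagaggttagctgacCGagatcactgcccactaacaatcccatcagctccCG
Tgfbr3 window 30: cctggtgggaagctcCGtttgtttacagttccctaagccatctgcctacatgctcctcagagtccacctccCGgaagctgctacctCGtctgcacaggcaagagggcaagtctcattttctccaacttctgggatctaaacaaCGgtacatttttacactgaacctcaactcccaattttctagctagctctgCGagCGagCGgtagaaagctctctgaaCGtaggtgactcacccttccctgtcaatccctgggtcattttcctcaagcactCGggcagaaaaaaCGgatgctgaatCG
Tgfb2 window 4: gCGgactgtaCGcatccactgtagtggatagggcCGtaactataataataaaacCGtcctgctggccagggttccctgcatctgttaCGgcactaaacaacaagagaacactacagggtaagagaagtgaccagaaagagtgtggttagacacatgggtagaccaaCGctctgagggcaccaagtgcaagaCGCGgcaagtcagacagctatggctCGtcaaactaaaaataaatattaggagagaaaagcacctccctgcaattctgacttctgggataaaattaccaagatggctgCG
These stretches held 11, 6, 11 and 10 CpGs, respectively. The same choice of stretch over 258383 windows gave fewer than 11 CpGs in 62.1% of windows and fewer than 6 in 6.79%, so the Tgfbr2 stretch was CpG-poor. On either strand, the AP-1 motif TGANTCA occurred in the Tgfbr3 stretch alone (7.2% of all stretches hold it) and the RUNX motif TGTGGT in the Tgfbr2 and Tgfb2 stretches (18.5%). The palindromic Smad motif GTCTAGAC, which 0.212% of all stretches hold, was in 0 of the 4. A match is a string of letters and was not tested as a binding site.

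Gene starts are represented by the 250 bases upstream of the RefSeq start of Tgfb1 and Tgfb2 (GRCm38), chosen to set a ligand whose start window was near 0% beside 1 whose start window was at 3.93% in Sham. The Tgfb1 sequence is on the plus strand at chr7:25686752-25687001, and the Tgfb2 sequence on the minus strand at chr1:186705990-186706239. CpGs are again in capitals.
Tgfb1: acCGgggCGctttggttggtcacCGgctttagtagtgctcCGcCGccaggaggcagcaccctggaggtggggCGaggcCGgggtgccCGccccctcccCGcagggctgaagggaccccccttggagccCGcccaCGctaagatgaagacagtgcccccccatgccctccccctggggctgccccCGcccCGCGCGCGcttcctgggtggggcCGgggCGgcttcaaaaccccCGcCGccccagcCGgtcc
Tgfb2: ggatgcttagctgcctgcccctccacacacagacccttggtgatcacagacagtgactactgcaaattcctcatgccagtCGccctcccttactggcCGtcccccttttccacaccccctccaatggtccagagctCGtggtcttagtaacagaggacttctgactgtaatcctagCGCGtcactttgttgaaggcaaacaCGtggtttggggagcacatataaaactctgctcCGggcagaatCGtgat
The Tgfb1 sequence held 21 CpGs and the Tgfb2 sequence 8. The RefSeq promoter table matched 5 of the 10 genes by symbol, namely Smad3, Tgfb1, Tgfb2, Tgfbr1 and Tgfbr2. Its 300-base entries run 50 bases past the start, and there Tgfb1 had 30 CpGs, more than 88.3% of 32851 promoters, and Tgfb2 had 10, more than 56.5%. In these entries the GC box GGGCGG occurred 6 times in Tgfb1 and 0 times in Tgfb2, and 35.7% of all promoters hold it at least once. It occurred 2 times in Smad3 and 2 times at the Tgfbr1 start. The Tgfbr2 entry held 0 GC boxes and 15 CpGs, although its start window was at 0.0159% in Sham. A link between these sequences and start methylation was not tested.

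OVA changed methylation at many windows of these genes in both kinds of offspring. In Sham offspring 79 of 190 windows passed the test (limma, adjusted p under 0.05 over 259167 windows), 52 of them higher and 27 lower after OVA. Over all windows tested 35.6% passed, 13.3% higher and 22.3% lower. In PM offspring 88 of 190 passed, 45 higher and 43 lower, against 44.1% of all windows, of which 9.26% were higher and 34.8% lower. Hence the share of windows passing was near the background, whereas higher windows were the more frequent direction in Sham here and the less frequent over all windows. After each library was centred on its median, the splits were 59 higher and 17 lower in Sham and 64 higher and 19 lower in PM offspring (50.7% and 50.3% of the calls over all windows were then higher), and 0 windows called both ways changed sign. Of the 65 windows that passed in both kinds of offspring, 65 had the same sign, although windows of 1 gene are neighbours and not independent. Neither count was computed over all windows, so whether these genes differ from the rest in this is not known. The median difference over the 190 windows was 0.314 points in Sham and -0.102 in PM offspring.

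**Figure D1:**
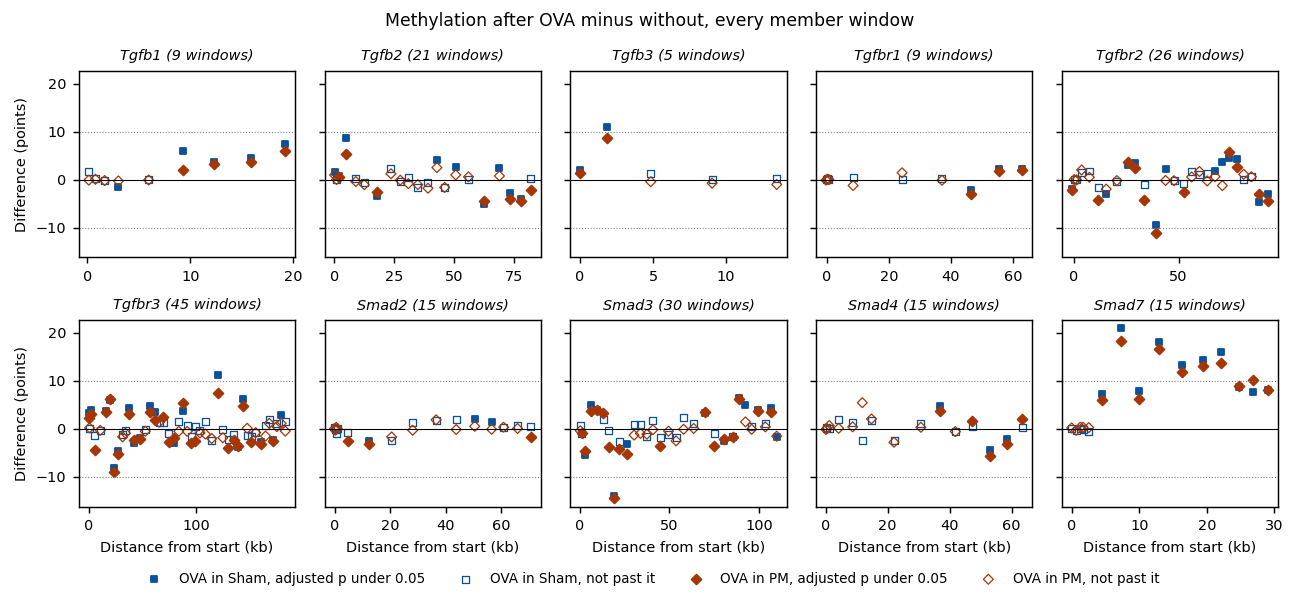
Difference in methylation (mean after OVA minus mean without, percentage points) for every window of the 10 genes against the distance of its centre from the gene start in kb, for Sham (squares) and PM offspring (diamonds). Filled points passed the test, dotted lines mark 10 points, and the windows of Smad7 reach 20.9 points whereas Smad2 and Tgfbr1 stay within 4 points of 0.

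Differentially methylated regions (DMRs), defined here as windows past the test with group means at least 10 points apart, numbered 8 of 190 in Sham (0.775% of all windows) and 8 of 190 in PM offspring (0.584%). Smad7 held 5 of the 8 in Sham and 6 of the 8 in PM offspring. The others lay in Smad3, Tgfb3, Tgfbr2 and Tgfbr3. Each of these DMRs began at an intermediate level, between 10% and 70% in Sham, as did 81.4% of the DMRs over all windows in Sham offspring and 73.2% in PM offspring. Of the 57 member windows at that level, 32 passed in Sham (56.1%, against 37.3% of all windows at that level) and 31 in PM offspring (54.4% against 39.1%), with medians of 1.79 and 1.14 points beside 0.312 and -0.347 over all such windows. Smad7 held 9 of the 57, all higher in both kinds of offspring, and without Smad7 23 of 48 passed in Sham (47.9%, median 1.47 points) and 22 of 48 in PM offspring (45.8%, median 0.262 points). Of the 105 windows at 70% or more, 42 passed in Sham (23 higher and 19 lower) and 52 in PM offspring (19 higher and 33 lower), and 0 were DMRs. That is near the 36.4% and 48.2% of all windows at that level, of which 16175 were higher and 48780 lower in Sham and 9952 higher and 76115 lower in PM offspring. By place, 91 of the 190 windows lay wholly within introns and 10 held a gene start, and of the 8 DMRs in each kind of offspring 6 were intronic and 0 held a start. A gene start here is that of the longest protein-coding transcript. Other annotated coding starts, which Smad7, Smad3 and others of these genes have, were not examined. Shares by place were not computed over all windows.

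Smad7, the inhibitory Smad, gained methylation over most of its length after OVA. The gene lies on the plus strand at chr18:75367529-75395935 (GRCm38), and 10 of its 15 windows were higher in Sham and 10 in PM offspring, with 0 lower in either. The mean over its windows was 23.0% ± 0.930 (SD, n = 7) in Sham and 31.1% ± 1.35 (n = 7) in Sham-OVA, 8.10 points higher (adjusted p = 6.53e-09 by limma over 38037 genes). In PM it was 23.4% ± 1.79 (n = 7) and in PM-OVA 31.0% ± 1.29 (n = 8), 7.59 points higher (adjusted p = 3.47e-09). The groups did not overlap, since Sham libraries ended at 24.5% where Sham-OVA began at 28.6%, and PM ended at 26.8% where PM-OVA began at 29.4%. The interaction, which tests whether the OVA difference differed between PM and Sham offspring, was -0.04 on the log2 ratio scale (95% interval -0.18 to 0.11, adjusted p = 0.838).

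Along Smad7 the rise began beyond the gene start, taken as that of its longest protein-coding transcript. The gene has 4 annotated coding starts in all, and the others were not placed among its windows. Windows 1 to 5, which cover the first 2.51 kb from the start to the centre of window 5, were at 0.0498% to 0.727% in Sham, and 0 of them passed the test. Window 6 rose from 7.06% ± 1.27 to 14.3% ± 2.62 in Sham offspring, and each window from there to the gene end was higher in both kinds of offspring. The difference was largest in window 7 (chr18:75373319-75376185, centred 7.22 kb from the start, with exonic bases of some transcripts) and then in windows 9 to 12 (75378832 to 75391014), which lie in an intron. Windows 6, 8, 13 and 15 rose by between 7.27 and 8.80 points in Sham offspring, without reaching 10 points.

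**Figure D2:**
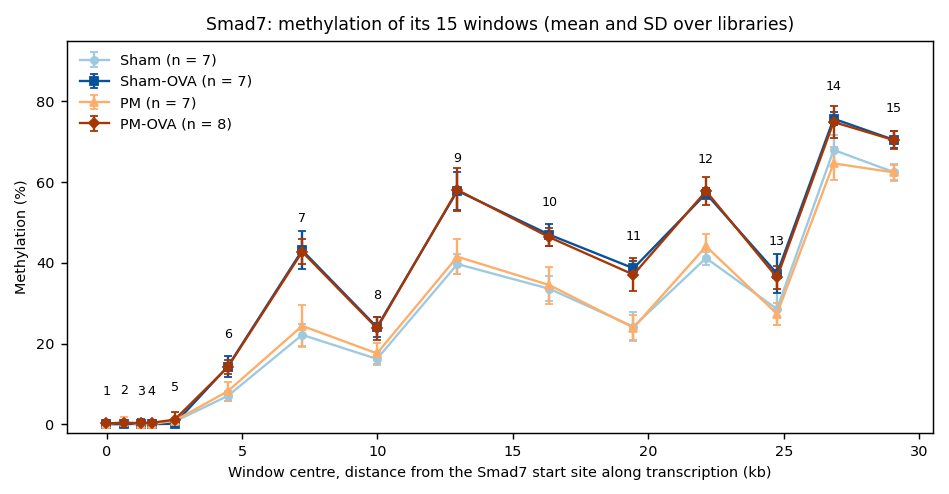
Methylation (%) of the 15 Smad7 windows, numbered along the gene, against the distance of each centre from the start in kb, as mean and SD of the libraries of each group. The OVA groups lie above their controls from window 6 on, and the first 5 windows are near 0 in all 4 groups.

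In Smad7 window 7 the Sham libraries ranged from 19.2% to 26.5% with a median of 21.5%, and the Sham-OVA libraries from 34.7% to 48.5% with a median of 43.7%. The PM libraries ranged from 19.8% to 35.6% with a median of 23.2%, and the PM-OVA libraries from 38.2% to 47.7% with a median of 43.1%. Neither pair of groups overlapped, and PM replicate 1 was the highest unchallenged library. The mean rose from 22.2% ± 2.67 to 43.1% ± 4.69 (SD, n = 7 each), a difference of 20.9 points (log2 ratio 1.38 ± 0.13 SE, adjusted p = 2.05e-08 by limma). In PM offspring it rose from 24.4% ± 5.28 (n = 7) up to 42.7% ± 3.07 (n = 8), by 18.3 points (log2 ratio 1.20 ± 0.13 SE, adjusted p = 5.90e-08). The interaction on the log2 ratio scale had a 95% interval of -0.56 to 0.20 and an adjusted p of 0.841.

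Smad7 window 12 had the smallest adjusted p of the member windows in both tests. Its Sham libraries ranged from 38.9% to 43.3% with a median of 41.3%, and its Sham-OVA libraries from 55.0% to 59.1% with a median of 57.5%. In PM it ranged from 39.3% to 47.1% with a median of 45.3%, and in PM-OVA from 54.0% to 65.3% with a median of 57.5%, so neither OVA group touched its control. The rise was 16.0 points in Sham (adjusted p = 4.06e-09) and 13.7 points in PM offspring (adjusted p = 1.19e-08). Windows 9, 10 and 11 rose by 18.1, 13.4 and 14.4 points in Sham and by 16.5, 11.8 and 13.2 in PM offspring. Window 14 (chr18:75393735-75394993), which holds coding and untranslated bases near the gene end, rose by 10.2 points in PM and 7.72 points in Sham offspring. It was a DMR in PM offspring alone, and its difference fell under 10 points without PM replicate 2 (9.64), PM replicate 3 (9.85), PM replicate 6 (9.91), PM-OVA replicate 1 (9.43), PM-OVA replicate 7 (9.78) or PM-OVA replicate 8 (9.78).

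In all, 9 of 15 Smad7 windows had groups that did not overlap in Sham offspring (8.58% of all windows tested) and 8 of 15 in PM offspring (12.0%). Outside these 10 genes, the windows whose scores ran closest to Smad7 window 7 over the 29 libraries lay in Ctnnd1, which encodes p120-catenin (Pearson's r = 0.968), Rapgef5, a Rap guanine nucleotide exchange factor (r = 0.967), and Plk2, a polo-like kinase (r = 0.964). All 3 were higher after OVA, by 16.5, 18.3 and 16.9 points in Sham and 13.9, 12.6 and 13.4 in PM offspring. The correlations therefore hold the gap between groups that all 4 windows share, and within groups r was 0.757, 0.809 and 0.782, over libraries that these windows also have in common.

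Smad3, which carries the signal to the nucleus, held the deepest fall of the 190 windows. Window 8 (chr9:63737911-63740246, minus strand, intronic, 18.9 kb from the gene start) is the source of the first sequence above. Its Sham libraries ranged from 61.3% to 65.8% with a median of 63.6%, and its Sham-OVA libraries from 45.0% to 57.4% with a median of 46.5%. The PM libraries ranged from 60.7% to 67.9% with a median of 64.5%, and the PM-OVA libraries from 46.5% to 55.4% with a median of 49.8%. Neither pair overlapped. The mean fell from 63.5% ± 1.55 to 49.4% ± 4.93 (SD, n = 7 each) in Sham, by 14.1 points (adjusted p = 2.01e-07), and from 64.8% ± 2.44 (n = 7) down to 50.3% ± 2.63 (n = 8) in PM offspring, by 14.5 points (adjusted p = 4.47e-08). The interval of the interaction was -0.29 to 0.24 on the log2 ratio scale (adjusted p = 0.973).

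The rest of Smad3 moved both ways. Of its 30 windows, 7 were higher and 5 lower in Sham and 7 higher and 10 lower in PM offspring (8 higher and 3 lower there after centring), with differences from -14.1 to 6.41 points in Sham. Averaged over the gene, %DNAm was 67.2% ± 0.517 in Sham and 67.3% ± 0.403 in Sham-OVA (n = 7 each), which did not pass the test (adjusted p = 0.837). In PM offspring the gene mean fell from 67.7% ± 0.748 (n = 7) to 66.9% ± 0.494 (n = 8), by 0.776 points (adjusted p = 0.0359). That fall was smaller than the median difference of all genes (-1.19 points), turned positive and did not pass when libraries were centred (log2 ratio 0.03, adjusted p = 0.287), and was lost without any of 7 single libraries, namely PM replicates 1, 2, 4, 5 and 6 and PM-OVA replicates 5 and 6 (adjusted p from 0.0548 to 0.0878).

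Smad2 and Smad4, the partners of Smad3, had no DMR. Neither gene mean passed the test in Sham (Smad2 0.196 points with adjusted p = 0.622, Smad4 0.0152 points with adjusted p = 0.981) or in PM offspring (-0.457 points with adjusted p = 0.181 and 0.282 points with adjusted p = 0.601). After centring, the mean of Smad2 passed as a rise in both (adjusted p = 0.0294 and 0.00912) and that of Smad4 in PM offspring (adjusted p = 0.00156), so these calls, and the direction of Smad2 in PM offspring, depend on the scaling. Smad4 window 13 (chr18:73648622-73653159), which covers coding exons, fell from 88.6% ± 0.470 to 84.2% ± 2.14 (SD, n = 7 each) in Sham (adjusted p = 1.07e-05) and from 89.3% ± 0.701 (n = 7) down to 83.6% ± 1.44 (n = 8) in PM offspring (adjusted p = 8.87e-08), with no overlap between groups in either. Smad2 window 6, in an intron, fell by 2.62 points in Sham and 3.25 in PM offspring (adjusted p = 0.0291 and 0.00454). The Smad2 call ended when libraries were centred, at -2.01 points in Sham (adjusted p = 0.0635) and -1.76 in PM offspring (adjusted p = 0.0904), and in Sham also without Sham replicate 2 (-2.36 points), Sham replicate 4 (-2.31), Sham-OVA replicate 3 (-2.28) or Sham-OVA replicate 6 (-2.47).

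Among the ligands, Tgfb1 and Tgfb3 were higher after OVA in the mean over their windows, with the windows that passed as higher lying in 1 part of each gene. The median window difference was 1.70 points in Tgfb1 and 1.35 in Tgfb3 in Sham offspring. In PM offspring it was 0.0569 and -0.447 points. The Tgfb3 mean rose from 58.2% ± 1.29 to 61.2% ± 0.916 in Sham (n = 7 each, adjusted p = 7.27e-05) and from 58.3% ± 0.860 (n = 7) to 59.9% ± 0.699 (n = 8) in PM offspring (adjusted p = 0.00928). Both of the windows that passed lay at its 5' end. Window 2 (chr12:86075982-86078436, minus strand, exonic bases and intron next to the start window) ranged from 37.2% to 49.0% with a median of 41.3% in Sham and from 46.3% to 59.8% with a median of 52.5% in Sham-OVA. In PM it ranged from 37.8% to 44.9% with a median of 41.5%, and in PM-OVA from 46.5% to 52.3% with a median of 50.7%. The groups overlapped in Sham but not in PM offspring. The rise was 11.0 points in Sham (adjusted p = 1.47e-05), a DMR that fell under 10 points without Sham-OVA replicate 4 (9.80), and 8.71 points in PM offspring (adjusted p = 0.000123), where it reached 10.3 points after centring.

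In Tgfb1, which encodes a ligand made by immune and structural cells, 4 windows were higher in each kind of offspring and 1 was lower in Sham, a call that ended after centring (adjusted p = 0.0911). The gene mean rose from 42.6% ± 0.446 to 45.0% ± 0.862 in Sham (n = 7 each, adjusted p = 3.47e-05) and from 43.2% ± 0.812 (n = 7) to 44.8% ± 0.655 (n = 8) in PM offspring (adjusted p = 0.00136). The 4 higher windows were windows 6 to 9, which make up the 3' part of the gene. Window 9 (chr7:25704830-25707637) has 248 exonic bases and otherwise lies past the annotated end, and it rose by 7.36 points in Sham and 5.93 in PM offspring (adjusted p = 0.00171 and 0.00594). Its groups overlapped in both.

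Tgfb2 moved both ways, with 6 of 21 windows higher and 4 lower in Sham and 2 higher and 5 lower in PM offspring (7 higher and 3 lower there after centring), and its gene mean did not pass the test (adjusted p = 0.756 and 0.147), although after centring it passed as a rise in both (adjusted p = 0.0334 and 0.0348). Window 4 (chr1:186698737-186703045, intronic, 5.10 kb from the start) rose from 50.1% ± 3.34 to 58.7% ± 1.63 (SD, n = 7 each) (adjusted p = 3.59e-05) and from 51.1% ± 3.34 (n = 7) up to 56.5% ± 2.38 (n = 8) (adjusted p = 0.00251). Sham libraries did not overlap with Sham-OVA libraries, whereas PM and PM-OVA libraries did.

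The receptors differed in direction from window to window. Tgfbr2, the ligand-binding kinase, lost methylation in the intronic window 12 (chr9:116133132-116138822, minus strand, 39.3 kb from the start), shown as the second sequence. In Sham this window ranged from 66.5% to 70.6% with a median of 68.2%, and in Sham-OVA from 53.9% to 64.7% with a median of 58.5%. In PM it ranged from 64.4% to 71.8% with a median of 69.3%, and in PM-OVA from 55.2% to 60.0% with a median of 58.1%. Every OVA library was below every control library of its kind. The window fell by 9.42 points in Sham (adjusted p = 1.08e-06) and fell by 11.0 points in PM offspring (adjusted p = 3.84e-08). It was a DMR in PM offspring alone, although without Sham-OVA replicate 7 it reached -10.4 points in Sham too and after centring it was at -9.49 points in PM offspring, and the interaction did not pass (interval -0.31 to 0.11 on the log2 ratio scale, adjusted p = 0.836). Over the whole gene 7 of 26 windows were higher and 5 lower in Sham, against 4 higher and 7 lower in PM offspring. After centring these were 7 higher and 2 lower in Sham and 8 higher and 4 lower in PM offspring. The gene mean passed in neither (adjusted p = 0.620 and 0.0712), although in PM offspring it passed as a fall without PM replicate 4 (adjusted p = 0.0384) or PM-OVA replicate 7 (adjusted p = 0.0400). After centring the log2 ratio of the gene mean was positive in PM offspring (0.04, adjusted p = 0.0653).

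Tgfbr3, the co-receptor, had the opposite change in its intronic window 30 (chr5:107167248-107172092, minus strand, 120.0 kb from the start), shown as the third sequence. This window ranged from 54.3% to 57.6% with a median of 54.7% in Sham and from 63.5% to 69.0% with a median of 67.2% in Sham-OVA. In PM it ranged from 54.3% to 60.6% with a median of 59.5%, and in PM-OVA from 63.6% to 71.1% with a median of 65.8%. The groups did not overlap in either. The rise was 11.2 points in Sham, a DMR (adjusted p = 3.86e-08), and 7.52 points in PM offspring (adjusted p = 4.01e-06). The interaction had an adjusted p of 0.655. Of the 45 windows of Tgfbr3, 11 were higher and 8 lower in Sham and 11 higher and 15 lower in PM offspring, against 14 higher and 6 lower and 15 higher and 7 lower after centring. Its gene mean passed in neither (adjusted p = 0.300 and 0.362). After centring it passed as a rise in both (adjusted p = 0.000687 and 0.00355).

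Tgfbr1, the signalling kinase, had 2 of 9 windows higher and 1 lower in each kind of offspring, with differences within 2.92 points of 0. Its window 7 (chr4:47394891-47404694), with coding exons, fell by 2.14 points in Sham and 2.92 in PM offspring (adjusted p = 0.0141 and 0.000897), and the Sham call ended after centring (adjusted p = 0.0599). The gene mean passed in neither (adjusted p = 0.259 and 0.792), and after centring it passed as a rise in both (adjusted p = 0.00757 and 7.97e-05). In all, 3 of the 10 gene means passed in Sham (39.6% of 38037 genes) and 4 of 10 in PM offspring (54.3%). Neither share exceeded that of all genes, but after centring 7 of 10 passed in Sham (44.2% of all genes) and 8 of 10 in PM offspring (49.5%), so this reading depends on the scaling.

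**Figure D3:**
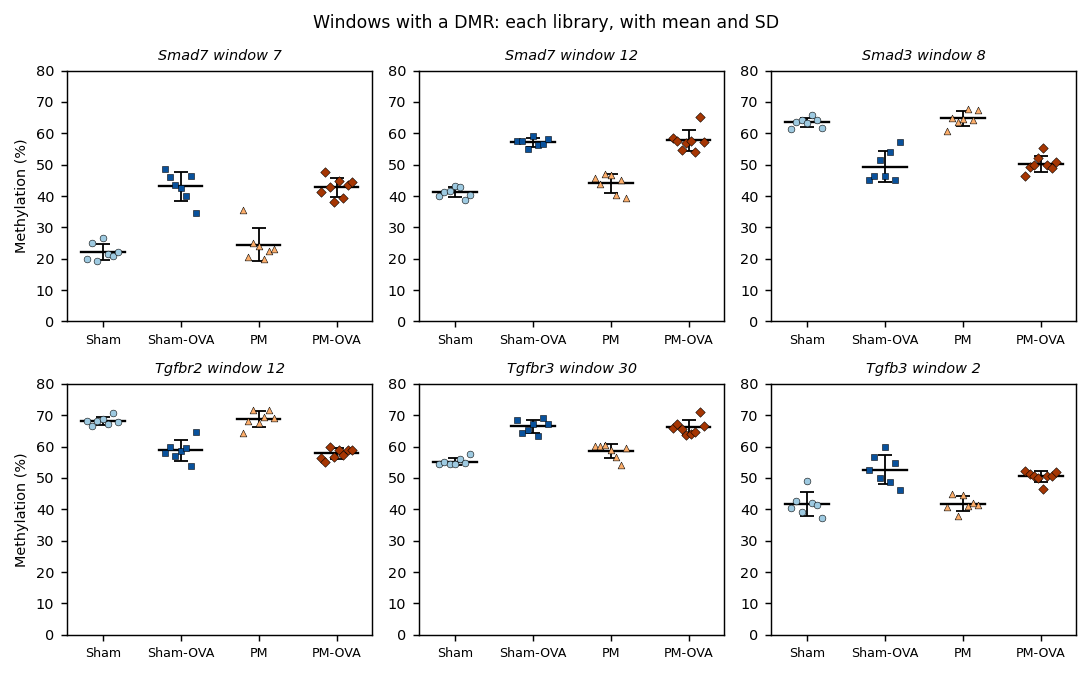
Methylation (%) of every library in 6 windows that held a DMR, by group, with horizontal bars at the mean and error bars of 1 SD. Smad7 windows 7 and 12, Tgfbr3 window 30 and Tgfb3 window 2 are higher in the OVA groups, and Smad3 window 8 and Tgfbr2 window 12 are lower, with overlap only in Tgfb3 window 2 in Sham offspring.

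The gene starts, 1 per gene as defined above, were mostly unmethylated, and the 3 with the highest levels rose after OVA in Sham offspring. In Sham the start window was under 1% in 7 of the 10 genes, from 0.0159% in Tgfbr2 to 0.379% in Smad3. Of all 28 member windows under 10% in Sham, 17.9% passed in Sham and 17.9% in PM offspring, below the 21.6% and 19.9% of all windows at that level, where most calls were rises (3383 higher and 487 lower in Sham). The start window was at 2.16% ± 1.01 in Tgfb3, 3.93% ± 0.582 in Tgfb2 and 6.54% ± 1.57 in Tgfbr3 (SD, n = 7). After OVA in Sham offspring, Tgfb3 was at 4.10% ± 0.847 (adjusted p = 0.00177), Tgfb2 at 5.53% ± 1.31 (adjusted p = 0.0138) and Tgfbr3 at 9.75% ± 1.16 (adjusted p = 0.00120). In PM offspring Tgfb3 rose by 1.47 points (adjusted p = 0.00683) and Tgfbr3 by 2.24 points (adjusted p = 0.0223), the latter lost without PM replicate 6 (1.97 points). Tgfb2 was 0.948 points higher and did not pass (adjusted p = 0.0878), though it passed after centring and without PM replicate 7 (1.17 points).

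The 7 start windows under 1% did not pass in either kind of offspring. The Smad2 start, 0.207 points higher in Sham (adjusted p = 0.0555), passed after centring and without Sham replicate 3 or 6 or Sham-OVA replicate 3, 4, 5 or 6 (0.225 to 0.252 points). The mean of the Tgfb1 start in Sham-OVA, 1.73% ± 4.49 (SD, n = 7), came from replicate 6 at 11.9%, with the next library at 0.137%. The Tgfb2 start window also overlaps the annotated Gm29491 and the Tgfb3 start window Gm48008, and the score does not tell the genes apart.

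**Figure D4:**
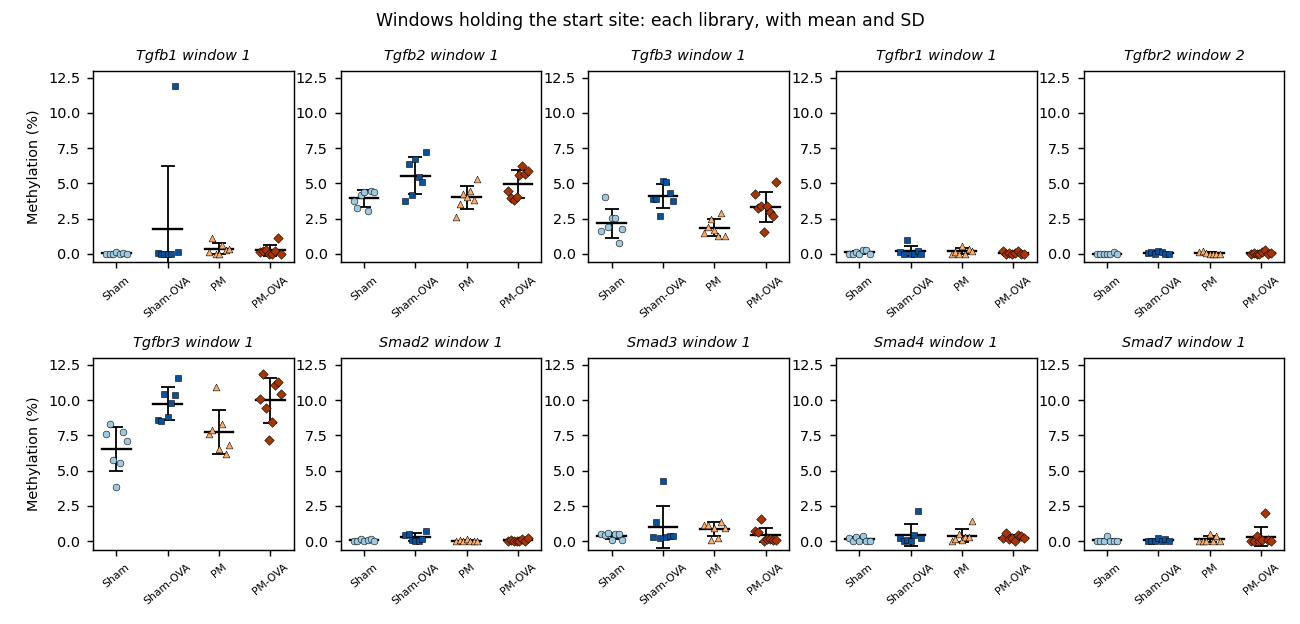
Methylation (%) of the window holding the start of each gene, by group, with 1 point per library, horizontal bars at the mean and error bars of 1 SD. Tgfb2, Tgfb3 and Tgfbr3 start above 2% and are higher after OVA in Sham offspring, whereas the other 7 genes are near 0 apart from single libraries such as 1 of Sham-OVA in Tgfb1.

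Maternal exposure was compared with and without OVA. Of the 190 windows, 0 passed for PM against Sham, 0 for PM-OVA against Sham-OVA and 0 for the interaction (limma, adjusted p under 0.05, which 0% of all windows reached in each), and 0 of 10 gene means passed in any of them (0% of genes). At an unadjusted p under 0.05 there were 14, 9 and 13 member windows, beside 5.79%, 5.96% and 7.40% of all windows. Tgfb1 window 6 (chr7:25695092-25697557, exons and introns) had the smallest unadjusted p of the members for PM without OVA (limma, adjusted p = 0.696) and for the interaction (adjusted p = 0.523). It ranged from 76.2% to 78.3% with a median of 77.0% in Sham and from 78.3% to 81.5% with a median of 80.3% in PM. After OVA it ranged from 81.7% to 84.4% with a median of 83.0% in Sham-OVA and from 80.7% to 83.9% with a median of 82.3% in PM-OVA. The PM mean was 3.07 points above the Sham mean, and the OVA difference was 5.95 points in Sham (adjusted p = 1.29e-07) and 2.04 points in PM offspring (adjusted p = 0.00833).

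For PM with OVA, Tgfbr2 window 20 (chr9:116103203-116105529, coding exon and introns) had the smallest unadjusted p (limma, adjusted p = 0.676). It was at 75.1% ± 2.30 in Sham, 78.7% ± 2.02 in Sham-OVA, 75.7% ± 1.13 in PM (n = 7 each) and 74.4% ± 1.75 in PM-OVA (n = 8). OVA raised it by 3.58 points in Sham (adjusted p = 0.00443), whereas the difference of -1.26 points in PM offspring did not pass (adjusted p = 0.310). After centring the log2 ratio was 0.319 in Sham (adjusted p = 0.00142) and 0.0011 in PM offspring (adjusted p = 0.993). The interaction of -0.37 on the log2 ratio scale (interval -0.59 to -0.16) had an adjusted p of 0.551, so a different response of the 2 kinds of offspring was not shown after adjustment.

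**Figure D5:**
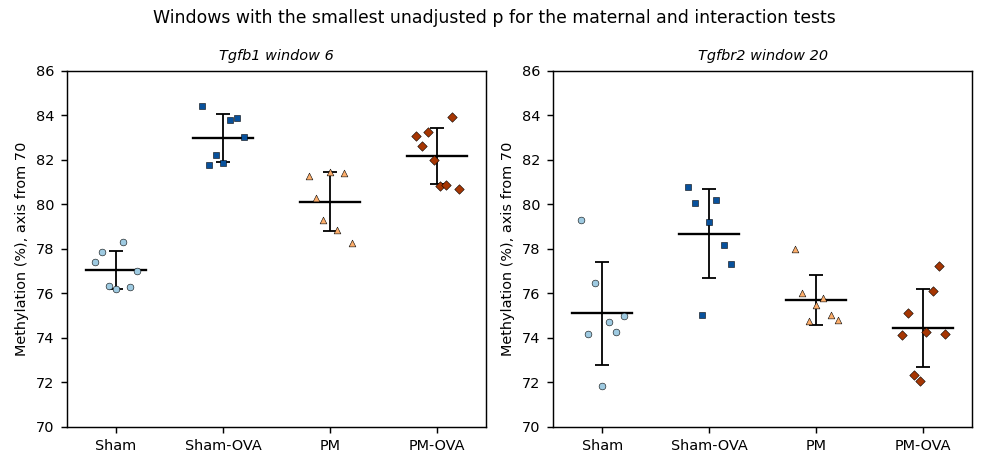
Methylation (%) of every library in Tgfb1 window 6 and Tgfbr2 window 20, by group, on an axis that begins at 70%, with horizontal bars at the mean and error bars of 1 SD. In Tgfb1 window 6 Sham has the lowest mean, and in Tgfbr2 window 20 Sham-OVA has the highest mean, while neither maternal comparison passed the adjusted test.

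Among 62 other genes of the pathway with windows, of 65 listed, 470 of 988 windows passed in Sham (279 higher, 191 lower) and 485 in PM offspring (197 higher, 288 lower), with medians of 0.253 and -0.259 points. The shares passing were 47.6% and 49.1%, against 35.6% and 44.1% of all windows. DMRs, which were 0.775% and 0.584% of all windows, numbered 22 higher and 0 lower in Sham and 11 higher and 1 lower in PM offspring, and they lay in 11 genes. The other inhibitory Smad, Smad6, had 8 DMRs in Sham and 6 in PM offspring, each a rise. Its widest rise was from 34.2% ± 4.54 to 51.4% ± 3.52 in Sham (n = 7 each, adjusted p = 1.63e-06), at chr9:63956501-63959636. Ski, a repressor that binds Smads, had 3 in each, up to 18.8 points in Sham (adjusted p = 1.41e-06) and 16.3 in PM offspring (adjusted p = 4.37e-06). Smurf2, a ubiquitin ligase that partners Smad7, had 1 in each (11.8 and 11.4 points, adjusted p = 5.90e-08 and 4.20e-08), and Smurf1, a related ligase, had 1 in Sham.

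Of the other receptors, Eng (endoglin, an endothelial co-receptor) had 3 DMRs, Acvrl1 (an endothelial type I receptor) 2 and Acvr1 1 in Sham offspring and 0 in PM offspring, with rises up to 12.2 points in Eng (adjusted p = 9.03e-07) and 11.8 in Acvrl1 (adjusted p = 7.26e-05). In the same Eng windows the PM means were 56.9%, 36.2% and 57.4% and the PM-OVA means 66.6%, 46.0% and 67.0%, just under 10 points apart. Those of Acvrl1 were 49.0% and 49.1% in PM and 56.4% and 58.7% in PM-OVA, and that of Acvr1 was 48.8% in PM and 56.4% in PM-OVA, so each was higher in PM-OVA too and the counts rest on the limit of 10 points. Whether these differed between the kinds of offspring was covered by the interaction, which 0 of the 988 windows passed (79 at an unadjusted p under 0.05). Ltbp3, a latent TGF-β binding protein, had 1 in Sham, although over the 261 windows of the latency and activation list 84 were lower and 47 higher in Sham and 118 lower and 25 higher in PM offspring. That is 50.2% and 54.8% of its windows, against 35.6% and 44.1% of all windows. Over all windows lower calls were also more frequent (22.3% lower and 13.3% higher in Sham, 34.8% and 9.26% in PM offspring). The targets with DMRs encode transcription factors of epithelial-mesenchymal transition, and each had 1 such window in a kind of offspring. The Snai1 window rose by 14.1 points in Sham and 10.5 in PM offspring (adjusted p = 1.55e-06 and 3.46e-05). The Zeb2 window was a DMR in Sham alone, from 64.3% to 76.3% (adjusted p = 3.10e-06), and had means of 67.6% in PM and 74.6% in PM-OVA. The Zeb1 window was a DMR in PM offspring alone, from 85.0% down to 74.1% (adjusted p = 5.79e-05), and had means of 82.1% in Sham and 75.6% in Sham-OVA.

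Windows of cell type marker genes moved with OVA as well. Of 187 windows of 28 immune genes, 75 were lower and 38 higher in Sham (median -1.10 points) and 84 lower and 30 higher in PM offspring (median -1.27 points), which is 60.4% and 61.0% against 35.6% and 44.1% of all windows. DMRs in these genes were 18 lower and 1 higher in Sham and 16 lower and 1 higher in PM offspring, where 0.775% and 0.584% of all windows were DMRs. The mean over these windows lay between 68.2% and 69.5% in Sham libraries, 66.4% and 67.6% in Sham-OVA, 68.7% and 69.8% in PM, and 66.3% and 67.3% in PM-OVA. Of 240 windows of 29 lung structural genes, 83 were higher and 21 lower in Sham (median 1.34 points) and 64 higher and 31 lower in PM offspring (median 0.421 points). That is 43.3% in Sham, above the share of all windows, and 39.6% in PM offspring, below it. DMRs in the structural genes were 4 higher and 1 lower in Sham and 1 higher and 1 lower in PM offspring. The mean over these windows lay between 59.8% and 61.6% in Sham, 61.0% and 62.9% in Sham-OVA, 60.0% and 62.1% in PM, and 60.8% and 62.3% in PM-OVA. Their part in the changes of the TGF-β genes was not tested.

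Without Sham replicate 1, 73 member windows passed in Sham offspring (49 higher and 24 lower), 8 were DMRs, and the difference in Smad7 window 7 was 20.6 points. Over all windows 85159 then passed (37.6% of them higher) and 1945 were DMRs, against 92210 and 2008 with that library. Before OVA, the gene means in Sham were ordered from Smad7 (23.0%) and Tgfb1 (42.6%) through Tgfbr1, Smad2, Tgfb3, Smad4, Tgfbr2, Smad3 and Tgfb2 to Tgfbr3 (72.0%). Tgfbr1 and Smad2, at 54.7% ± 0.317 and 54.8% ± 0.423, were within 1 SD of each other, as were Tgfb3 and Smad4 at 58.2% ± 1.29 and 58.4% ± 0.745. After OVA in Sham, Smad7 at 31.1% ± 1.35 still had the lowest gene mean. Tgfb3 moved above Smad4, to 61.2% ± 0.916 against 58.4% ± 0.886.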

How the data were processed

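Whole-genome enzymatic methyl-sequencing, which reads methylated and hydroxymethylated cytosines alike, was analysed in 29 lung libraries. After trimming (Trim Galore), the authors used DRAGEN for alignment to GRCm38 and for methylation calls. They then averaged calls in windows of CpGs in SeqMonk without pooling replicates. The table as deposited by the authors gives 1 percent (%DNAm) for each window and library, without counts or coverage, so the authors' count test could not be used. Windows were annotated with GENCODE M21. Percentages were put on a log2 ratio scale (methylated over unmethylated percent, with 1 point added to each). All 4 groups were fitted with limma (version 3.58.1, R 4.3.3) to the 259167 windows with at least 3 values per group, and 2-sided p-values were adjusted by Benjamini-Hochberg across these windows. Gene means were fitted likewise over 38037 genes. Sequences were read from GRCm38 and RefSeq with Python 3.11.15, and the code was tested on simulated data. Named windows were DMRs, each gene's start window, its largest mean OVA difference, and the smallest p for the other contrasts. The genes, lists and rules were chosen with earlier results of these data known. Of 42 pairs of libraries with equal replicate numbers in the sample titles, 3 deviated together with a correlation over 0.1 (median 0.0174), so the numbers were not treated as pairs. The library names number some Sham-OVA and PM-OVA libraries differently, and pairs by those names were not examined. Alternatives covered the scale, offset, prior, centring, thresholds, window filter, replicate block and each library left out.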

Additional observations from a re-analysis of the deposited data

Results flagged for a closer look

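In 18 of 108 sets of libraries, formed by the 27 named windows and the 4 groups, the highest or lowest library was set apart from the rest of its group by Dixon's ratio. The limit of that ratio is meant for 1 of 20 sets of normally distributed values. Start windows hold many values of exactly 0, so the number of sets to be had by chance is unknown here. Of these, 11 were in start windows close to 0%. The widest gap was at the Tgfb1 start, where Sham-OVA replicate 6 was at 11.9% and the next library at 0.137%. PM-OVA replicate 7 was at 1.11% in that window. The Smad3 start was at 4.28% in Sham-OVA replicate 4 and 1.54% in PM-OVA replicate 3. The Smad4 start was at 2.14% in Sham-OVA replicate 6 and 1.45% in PM replicate 7. The Smad7 start was at 0.348% in Sham replicate 4 and 2.02% in PM-OVA replicate 6. The Tgfbr1 start was at 1.00% in Sham-OVA replicate 3, and the Tgfbr2 start at 0.111% in Sham replicate 6 and 0.241% in PM-OVA replicate 6.

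PM replicate 1 was set apart above the rest of its group in 3 windows, at 35.6% in Smad7 window 7 (next library 24.9%), 73.5% in Smad7 window 14 (next 65.0%) and 78.0% in Tgfbr2 window 20 (next 76.0%). In Smad7, Sham replicate 7 was low in window 9 (34.6%, next 38.9%), PM replicate 2 was low in window 11 (17.5%, next 23.9%) and PM-OVA replicate 7 was high in window 12 (65.3%, next 58.6%). PM-OVA replicate 5 was low in Tgfb3 window 2 (46.5%, next 50.0%).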

How the results depend on the processing

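Across the 27 named windows and both OVA comparisons, 1907 of 1944 values under other settings kept direction and side of the threshold, 9 lost the threshold, 9 gained it and 19 changed sign. The 19 belonged to 7 differences at gene starts near 0%, of which 0 passed the test in either form. In PM offspring the Smad2 start moved to -0.0100 points with the replicate block and -0.00536 without PM-OVA replicates 7 and 8, and in Sham offspring the Smad7 start moved to 0.0253 after centring. Leaving out single libraries, the differences at the starts ranged in PM offspring from -0.0100 to 0.0375 (Smad2), -0.207 to 0.0342 (Smad4), -0.0550 to 0.253 (Smad7), -0.246 to 0.00936 (Tgfb1) and -0.0175 to 0.0279 (Tgfbr2), and in Sham offspring from -0.0290 to 0.0464 (Smad7) and -0.0360 to 0.131 (Tgfbr1). With an adjusted p under 1e-06 in place of 0.05, 8 member windows were past it in Sham (1.14% of all windows) and 8 in PM offspring (2.12%), with 7 DMRs in Sham (0.398%) and 5 in PM offspring (0.355%), 1 gene mean in each (1.59% and 4.21% of all genes), and 21 and 35 windows of the other pathway genes. With a minimum difference of 5 points the DMRs numbered 23 in Sham (5.96% of all windows) and 24 in PM offspring (5.89%). After centring of the libraries 7 gene means passed in Sham (44.2% of all genes) and 8 in PM offspring (49.5%), and with the median over windows in place of the mean 5 passed in Sham (36.4%). Leaving out each library in turn gave 71 to 81 member windows, 7 to 9 DMRs, 3 gene means each time and 414 to 489 windows of the other pathway genes in Sham, and 79 to 90 windows, 7 to 8 DMRs, 3 to 5 gene means and 454 to 489 pathway windows in PM offspring. With the replicate block, 80 and 82 windows passed. The labels do not say that equal numbers mark related animals, and the block moved no named window across the adjusted p threshold, although Smad7 window 14 was then at 9.78 points in PM offspring, under the 10 of a DMR. Without PM-OVA replicates 7 and 8, whose library names differ in style, 78 and 76 windows passed, and the rise at the Tgfbr3 start in PM offspring was lost (1.94 points). The maternal comparisons and the interaction gave 0 member windows and 0 gene means under every setting run. The causes of these changes were not tested. Since depth is unknown, scores carry no counting error here.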
